A study of Mus musculus with 6 samples.

Results

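The genes described here encode the proteins of the mitochondrial ribosome, measured by RNA-seq in hematopoietic stem cells (HSCs) of young and old mice. They were chosen as a set with earlier results of these data known. Its members were taken by name alone, as every row of the count table whose symbol is Mrpl or Mrps followed by a digit. This rule took 78 of 24091 genes. Low counts removed 1 of them, which left 77 among 13413 tested genes. By the labels the HSCs were wild type (wt). The sort took cells without lineage markers that carried Sca-1, c-Kit and CD150 but not CD48. The aged group holds 3 libraries from mice of 20 months (aged 1 to aged 3), and the young group 3 libraries from mice of 2 months (young 4 to young 6). Marrow of 4 mice was combined for aged and of 30 mice for young cells. Whether that was for each library or for the whole group, and which strain was used, is not given in the sources used here. A p-value here thus reflects variation among these 3 libraries a group, part of which may be technical. In bulk samples, fewer cells of a kind cannot be told apart from less RNA per cell.

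The mitochondrial ribosome translates the few messages of mitochondrial DNA, which encode core subunits of the respiratory chain and of ATP synthase. Its RNAs come from mitochondrial DNA, whereas all of its proteins are encoded in the nucleus, made in the cytosol and imported. A small subunit reads the message and a large subunit joins the amino acids and holds the exit tunnel. Some of the proteins have counterparts in bacterial ribosomes, and others were added in the mitochondrial lineage. HSCs are known for restrained respiration at rest and for low rates of protein synthesis.

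Most of these genes had less RNA in aged than in young HSCs, but none of them passed edgeR's quasi-likelihood test over all 6 libraries. That test called 1.50% of all genes lower and 4.26% higher. DESeq2 called 8 members (10.4%) lower, against 6.90% of all genes. The median log2 fold change (aged minus young) was -0.53, or 1.44-fold lower, against 0.04 over all genes tested, and 73 of 77 values were negative, as were 47.3% of those of all genes. Without young 4, a library that stood apart, the median was -0.27 (1.20-fold lower), again with 73 of 77 negative, against 46.6% of all genes. In that comparison 2 genes fell: Mrpl18, a protein of the central protuberance of the large subunit, 1.65-fold, and Mrps28, a small subunit protein, 1.53-fold (adjusted p = 0.0424 and 0.0456 by edgeR's quasi-likelihood test). These were 2.6% of the members, near the 2.54% of all genes called lower there. Mrps5, a small subunit protein near the entry of the message, was the only member with all aged libraries above all young ones. This held for 19.0% of all genes, and Mrps5 did not pass edgeR's quasi-likelihood test over all 6 libraries (adjusted p = 0.208).

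Counts per library summed to between 16452829 (young 4) and 21918658 (young 6). Aged 2 had counts for 20918 genes, against 16084 (young 4) to 17057 (aged 3) in the other libraries. With young 4 and aged 2 both left out, the members' median log2 fold change was -0.35, with 74 of 77 negative. The members' own counts ranged from 171 for Mrps6 in young 4 to 13122 for Mrpl42 in young 4, leaving Mrpl53 aside. Values are given in CPM, counts scaled to a common library size with TMM factors, a correction for composition. All pairs of libraries differed by more than sampling noise; the closest, young 5 and young 6, had a chi-square per degree of freedom of 10.7. Among aged libraries this value was 78.3 for aged 1 and aged 2, 64.8 for aged 1 and aged 3, and 24.5 for aged 2 and aged 3. Between aged libraries and young 5 or young 6 it ran from 68.5 to 104, so the aged group was spread as well. Young 4 was farther from its group, at 197 against young 5 and 210 against young 6. Its scaling factor was 0.765, against 1.04 to 1.08 in the other 5 libraries, and Actb, which encodes beta-actin, took 4.06% of its counts against 0.555% to 1.36%. The 10 stem cell and sort markers, which were all detected, summed to 1300 CPM in young 4, 2110 CPM in young 5, 2360 CPM in young 6 and between 2700 and 3330 CPM in aged libraries.

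Promoters of 4 members are shown because they carry letters bound by the factors known for nuclear genes of mitochondrial proteins: ETS factors such as GABP, YY1 and NRF1. They also span the range of the data below, from Mrpl18 and Mrps18a, which are among the 6 lower genes with the smallest p, to Mrpl42, the member with the largest excess in young 4, and Mrpl10, which was lowest in young 4. Sequences are from RefSeq on GRCm38.p6, the build named mm10, and run from 250 bases before to 50 bases after the gene's start on its own strand. Capitals mark matches, on either strand, to CCGGAAG (ETS), AAGATGGC (YY1) or GCGCATGCG (NRF1). The windows are chr17:12916042-12916341, minus strand (Mrpl18), chr17:46110754-46111053, plus strand (Mrps18a), chr10:95501900-95502199, minus strand (Mrpl42) and chr11:97041332-97041631, plus strand (Mrpl10).
Mrpl18: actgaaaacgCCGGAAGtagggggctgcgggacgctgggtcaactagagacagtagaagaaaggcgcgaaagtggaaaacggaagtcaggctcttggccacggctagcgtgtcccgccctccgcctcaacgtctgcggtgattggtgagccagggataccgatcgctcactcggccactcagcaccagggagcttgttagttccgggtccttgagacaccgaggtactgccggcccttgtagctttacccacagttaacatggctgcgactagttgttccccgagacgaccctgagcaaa
Mrps18a: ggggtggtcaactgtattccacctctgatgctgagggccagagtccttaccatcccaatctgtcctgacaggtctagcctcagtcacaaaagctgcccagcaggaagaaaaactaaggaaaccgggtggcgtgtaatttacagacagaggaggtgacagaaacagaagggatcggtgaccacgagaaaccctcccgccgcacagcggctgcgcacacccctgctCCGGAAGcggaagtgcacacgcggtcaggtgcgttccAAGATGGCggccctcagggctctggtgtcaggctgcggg
Mrpl42: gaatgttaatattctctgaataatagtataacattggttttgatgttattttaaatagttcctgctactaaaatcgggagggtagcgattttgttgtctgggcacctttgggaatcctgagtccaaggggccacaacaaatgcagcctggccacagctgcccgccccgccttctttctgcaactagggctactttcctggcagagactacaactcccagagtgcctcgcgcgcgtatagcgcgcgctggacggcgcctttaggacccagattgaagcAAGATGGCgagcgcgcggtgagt
Mrpl10: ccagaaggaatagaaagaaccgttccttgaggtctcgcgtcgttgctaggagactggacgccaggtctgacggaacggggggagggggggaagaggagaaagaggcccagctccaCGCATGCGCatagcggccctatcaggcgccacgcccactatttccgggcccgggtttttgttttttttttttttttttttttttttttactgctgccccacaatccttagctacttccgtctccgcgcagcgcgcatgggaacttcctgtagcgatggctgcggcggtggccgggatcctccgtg

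Of the 78 members, 69 matched the promoter table, with 75 windows. CCGGAAG was in 26 of these windows (34.7%), against 16.9% of the 13229 windows of all tested genes and 8.86% of all 32851 windows. AAGATGGC was in 12 (16.0%), against 4.27% and 2.75%, and GCGCATGCG was in 7 (9.33%), against 3.45% and 1.75%. At least 1 of the 3 stood in 38 member windows (50.7%) and in 22.8% of windows of tested genes. The GC box GGGCGG was in 52.0% of member windows and 60.9% of windows of tested genes, the E-box CACGTG in 9.33% and 9.90%, and CCAAT in 40.0% and 37.8%. Matches to different motifs among the first 3 shared bases in 0 of the 75 windows. GCGCATGCG can overlap its own reverse complement, as in the windows of Mrpl9, Mrpl32 and Mrpl39, and such a window counts once. A match describes the letters only. Members with CCGGAAG had a median log2 fold change of -0.59 (25 tested genes) and those without it -0.52 (43 genes). For AAGATGGC these medians were -0.64 (12 genes) and -0.53 (56 genes), and for GCGCATGCG, in the other order, -0.48 (7 genes) and -0.55 (61 genes).

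As a whole, the members took a smaller share of the counts in each aged library than in any young one. Aged 1 gave them 0.566%, aged 2 0.629% and aged 3 0.575% of its counts, against 0.902% in young 4, 0.728% in young 5 and 0.680% in young 6. Their summed level was 5260, 6040 and 5370 CPM in aged 1 to aged 3 and 11800, 6990 and 6540 CPM in young 4 to young 6. Aged and young libraries did not overlap on either scale, and young 4 lay far above its group. The mean share was 0.590% ± 0.0339 in aged and 0.770% ± 0.117 in young libraries (SD, n = 3 each), an aged to young ratio of 0.766; without young 4 the ratio was 0.838. No test was made of these sums, since the genes were chosen as a group with earlier results known.

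**Figure D1:**
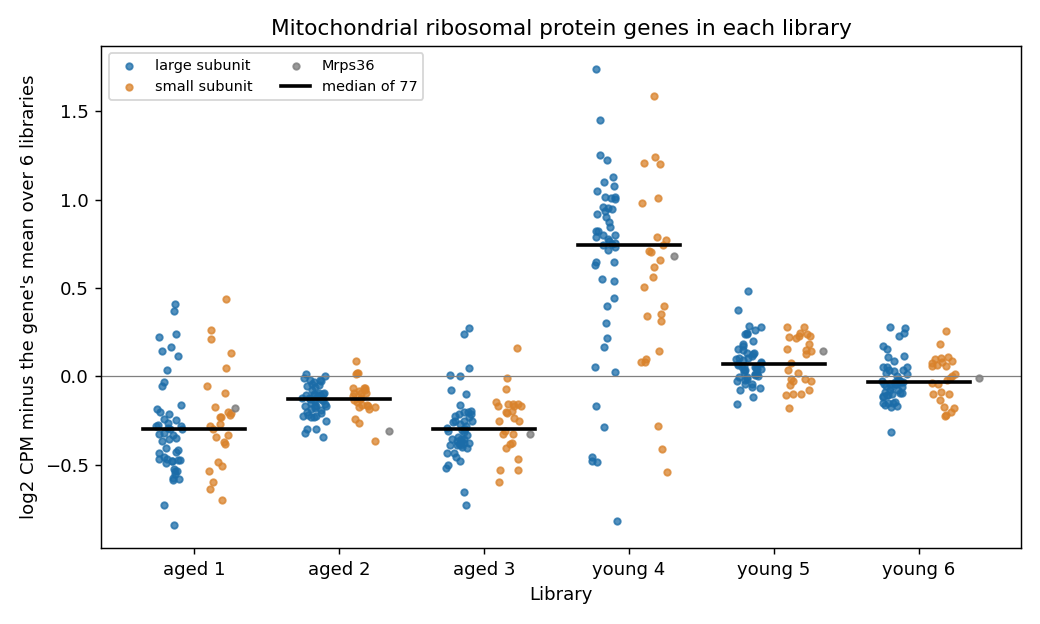
Each point is 1 of 77 genes, plotted as its log2 CPM minus its own mean over the 6 libraries (y axis) in each library (x axis), coloured by subunit, with the median of all 77 as a bar. The median was -0.296, -0.129 and -0.300 in aged 1 to aged 3, 0.744 in young 4, 0.071 in young 5 and -0.029 in young 6, and the points are most spread out in young 4.

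Gene by gene, the aged values lay below all young values for 44 of 77 members, against 17.6% of all tested genes, and above all young values for 1 (Mrps5), against 19.0%. With young 4 left aside, the aged values lay below young 5 and young 6 for 47 members, against 22.9% of all genes, and above them for Mrps5 alone, against 25.6%. In edgeR's quasi-likelihood test of the 6 libraries, 0 members were called lower and 0 higher at an adjusted p under 0.05, where 1.50% of all genes were called lower and 4.26% higher. The unadjusted p was under 0.05 for 27 lower members (35.1%) and 0 higher ones, against 11.1% and 13.9% of all genes. DESeq2 called 8 members lower (Mrpl18, Mrps28, Mrpl28, Mrps15, Mrps11, Mrps22, Mrpl47 and Mrps18a), against 6.90% of all genes, and limma-voom called 0, against 1.77%, or 21 with quality weights, against 13.2%. Without young 4, 2 members were called lower and 0 higher, against 2.54% and 4.93% of all genes, and an unadjusted p under 0.05 went with 26 lower members, against 12.2%. In the edgeR fits the share of members called lower was thus near that of all genes.

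The changes were small. Only 4 members were past a 2-fold lower value over all 6 libraries, namely Mrpl18, Mrpl33, Mrpl42 and Mrps18c, and 0 without young 4. The middle of the list, from the lower to the upper quartile, ran from -0.72 to -0.31 on the log2 scale with young 4 and from -0.38 to -0.19 without it. Past 1.25-fold, 56 members were lower and 3 higher with young 4, and 27 were lower and 1 higher without it. Of all genes, 26.2% were past that fold in the lower and 31.9% in the higher direction with young 4, and 19.1% and 28.8% without it.

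**Figure D2:**
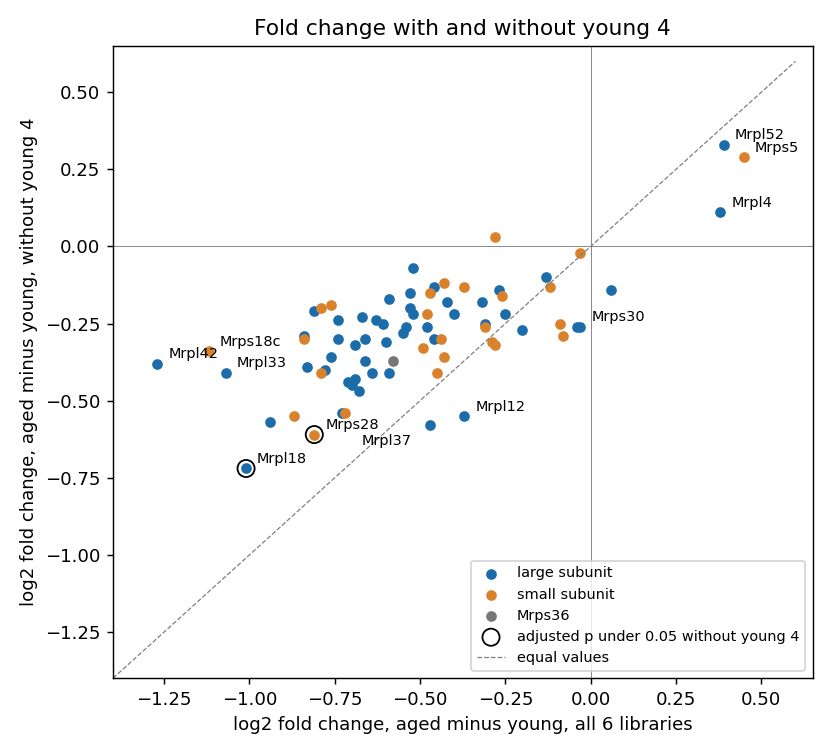
Log2 fold change of each of 77 genes, aged minus young, from all 6 libraries (x axis) against the fit without young 4 (y axis), coloured by subunit, with rings on the 2 genes that passed the test without young 4. Most points lie above the dashed line of equal values, with a median of -0.27 on the y axis and -0.53 on the x axis; Mrpl42, Mrps18c and Mrpl33 lie farthest above it, while Mrpl12, Mrpl37 and Mrps30 lie below it.

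Large subunit genes had a median log2 fold change of -0.59, with 47 of 50 negative and 19 lower at an unadjusted p under 0.05. Small subunit genes had a median of -0.44, with 25 of 26 negative and 7 lower at that p. Without young 4 both medians were -0.27. The summed CPM of large over small subunit genes gave a ratio of 2.38 for aged 1, 2.44 for both other aged libraries, 2.63 for young 4, 2.49 for young 5 and 2.48 for young 6. This ratio was lower in every aged library than in every young one, by little outside young 4. Genes with a bacterial counterpart had a median of -0.53 (46 genes, 44 negative) and those particular to mitochondria -0.49 (30 genes, 28 negative).

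Mrpl18 (mm10 chromosome 17, 12911355 to 12916091, minus strand) had the smallest p of the large subunit. It stood at 143, 157 and 117 CPM in aged 1 to aged 3 and at 388, 235 and 218 CPM in young 4 to young 6. All aged libraries were below all young ones, and young 4 was the highest. The log2 fold change was -1.01 ± 0.26 SE (2.02-fold lower, adjusted p = 0.0712), and -0.72 ± 0.15 SE without young 4, where it passed the test. Its window above holds an ETS match near its upstream end.

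Mrpl28 (chromosome 17, 26123503 to 26126613, plus strand), a counterpart of bacterial L28, stood at 128, 162 and 143 CPM in aged libraries and 301, 217 and 198 CPM in young 4 to young 6. The groups did not overlap (log2 fold change -0.73 ± 0.21 SE, adjusted p = 0.0925, and 0.0691 without young 4). Mrpl36, the small zinc-binding protein of the large subunit, stood at 98.0, 120 and 108 CPM in aged libraries and 242, 149 and 142 CPM in young libraries. The groups were again apart, with an adjusted p of 0.131, and 0.0915 without young 4. Mrps18a belongs to the large subunit despite its symbol, and is related to Mrps18b and Mrps18c. Mrps18a stood at 68.9, 82.4 and 78.3 CPM in aged libraries and 159, 105 and 104 CPM in young libraries, so that aged values lay below young ones (1.6-fold lower, adjusted p = 0.108, and 1.38-fold with 0.0750 without young 4).

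Mrps18b and Mrps18c, both of the small subunit, also had negative fold changes. Mrps18b stood at 34.1, 38.5 and 38.7 CPM in aged libraries and 70.4, 40.2 and 44.9 CPM in young libraries, with young 5 just above aged 3 (1.4-fold lower, adjusted p = 0.251). Mrps18c, at 67.1, 100 and 75.6 CPM in aged libraries, was at 327 CPM in young 4 but at 108 and 93.7 CPM in young 5 and young 6, which overlapped aged 2. Its log2 fold change thus moved from -1.12 ± 0.49 SE to -0.34 ± 0.20 SE when young 4 was left out (adjusted p = 0.205 and 0.321).

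In the small subunit, Mrps28 (chromosome 3, 8802146 to 8923857, minus strand) had the smallest p. It stood at 53.0, 49.9 and 44.6 CPM in aged libraries and at 111, 78.1 and 69.6 CPM in young libraries, with no overlap. Its log2 fold change was -0.81 ± 0.21 SE over all 6 libraries (adjusted p = 0.0719) and -0.61 ± 0.13 SE without young 4. Mrps11 (chromosome 7, 78783131 to 78792988, plus strand), of the platform that faces the message's exit, stood at 48.2, 63.3 and 53.9 CPM in aged libraries and 114, 84.9 and 73.2 CPM in young libraries. These did not overlap either (1.65-fold lower, adjusted p = 0.0971, and 1.45-fold with 0.0936 without young 4). Mrps22 (chromosome 9, 98588730 to 98601679, minus strand), a protein without bacterial counterpart, stood at 38.7, 42.9 and 33.4 CPM in aged libraries and 99.9, 59.4 and 51.1 CPM in young libraries. It too was separated by age, with a log2 fold change of -0.87 ± 0.27 SE (adjusted p = 0.11) and -0.55 ± 0.16 SE without young 4 (0.0884).

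**Figure D3:**
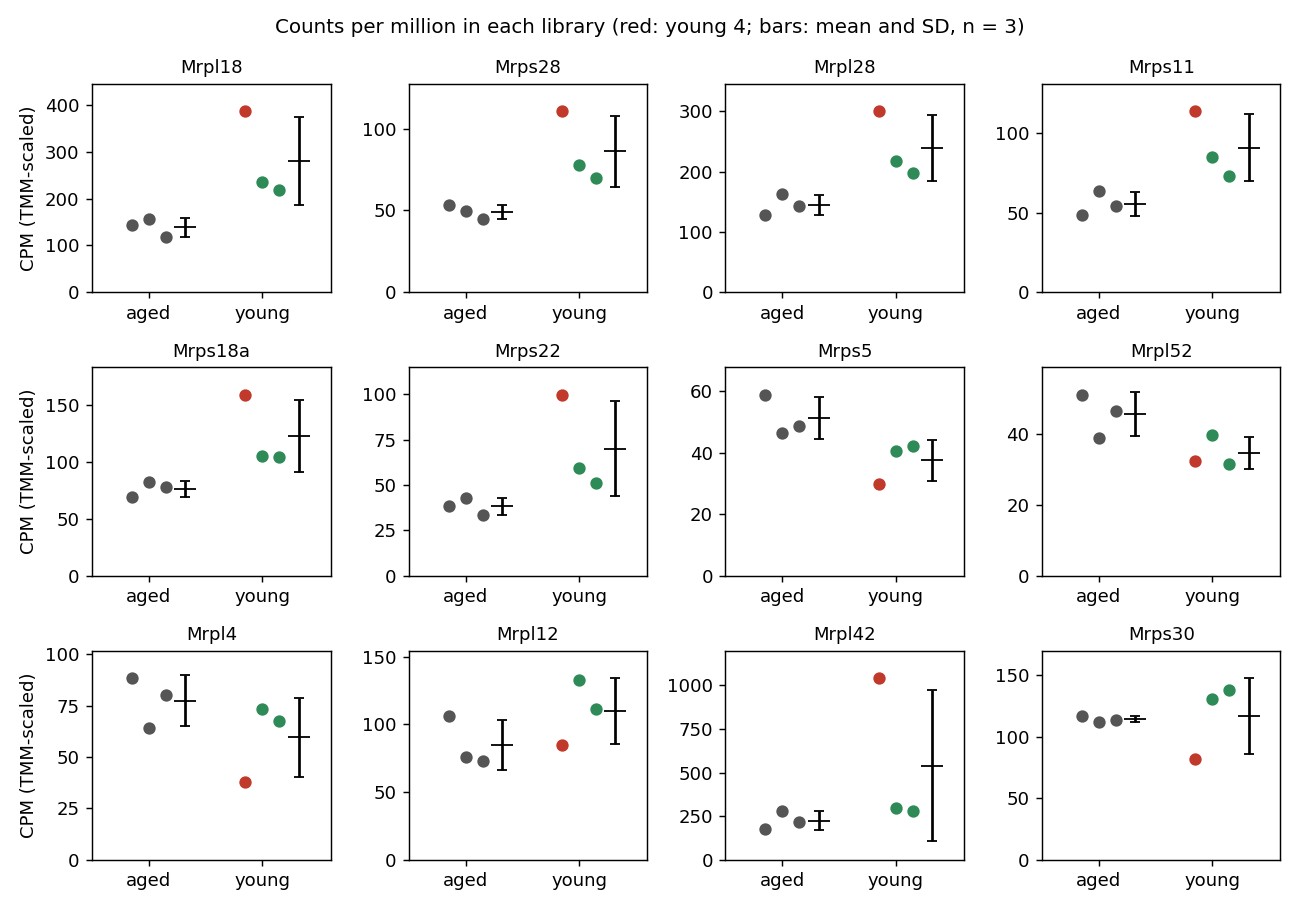
CPM of 12 genes (y axis, each from 0) in aged (grey) and young libraries, with young 4 in red, young 5 and young 6 in green, and mean and SD (n = 3) as bars. The first 6 are the lower genes with the smallest p, whose aged points all lie below the young ones; Mrps5 shows the reverse, and Mrpl42 and Mrps30 show young 4 far above and far below the other young libraries.

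The proteins of the decoding and stalk regions were spread over this range. Mrps12, the counterpart of the bacterial protein at the decoding centre, stood at 67.7, 83.1 and 76.6 CPM in aged libraries and 125, 96.8 and 87.1 CPM in young libraries. Mrps7, of the small subunit's head, stood at 77.2, 71.1 and 69.6 CPM in aged libraries and 88.8, 93.9 and 83.7 CPM in young libraries, with young 4 between the other young values. Both genes had aged values below all young ones, with adjusted p-values of 0.201 and 0.249. Mrpl12, the stalk protein that also binds the mitochondrial RNA polymerase, stood at 106, 76.0 and 72.5 CPM in aged libraries and 84.5, 133 and 111 CPM in young libraries. Here young 4 lay among the aged values, and the log2 fold change went from -0.37 ± 0.23 SE to -0.55 ± 0.19 SE without it (adjusted p = 0.351 and 0.127). Mrpl10, at the base of that stalk, was lowest of all in young 4: 61.8, 48.6 and 57.8 CPM in aged, 39.9 CPM in young 4 and 66.2 CPM in each of young 5 and young 6. Mrpl11, also of the stalk base, stood at 55.1, 74.9 and 67.2 CPM in aged libraries and at 161, 77.6 and 74.9 CPM in young ones, so that young 6 and aged 2 were alike.

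Other members chosen for their role were tested in the same way. Mrpl44, related to ribonuclease III, had 1 of the narrowest ranges: 75.4, 76.1 and 73.1 CPM in aged libraries and 87.7, 81.4 and 76.7 CPM in young libraries (1.09-fold lower, adjusted p = 0.571). Mrpl3, near the peptidyl transferase centre, was at 68.3 ± 5.36 CPM in aged libraries and 84.6 ± 8.21 CPM in young ones (n = 3 each, SD), with an adjusted p of 0.254. Mrpl41 was at 57.7 ± 3.10 and 83.4 ± 31.9 CPM, Mrps14 at 206 ± 38.0 and 369 ± 204 CPM, and Mrps16 at 76.8 ± 5.67 and 107 ± 39.3 CPM. In each of these 3, young 4 was the highest library, and without it the log2 fold changes were -0.20, -0.30 and -0.15. Mrps34, at 19.1 ± 1.79 and 22.9 ± 3.06 CPM, overlaps Nme3 on the same strand and Eme2 and Mapk8ip3 on the other, so its reads are uncertain. Mrpl41 overlaps Dph7 on the opposite strand, so its reads are uncertain too.

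Mrps36 has a mitochondrial ribosome name but is now known as part of the 2-oxoglutarate dehydrogenase complex of the citric acid cycle. It stood at 16.9, 15.5 and 15.3 CPM in aged libraries and 30.8, 21.2 and 19.1 CPM in young libraries. The values did not overlap, and its 1.49-fold lower value (adjusted p = 0.181) was close to the median of the ribosomal genes.

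Only 4 members had higher fitted values in aged cells over all 6 libraries: Mrps5, Mrpl52, Mrpl4 and Mrpl38. Mrps5 stood at 58.8, 46.2 and 48.6 CPM in aged libraries and 29.9, 40.4 and 42.1 CPM in young libraries (log2 fold change 0.45 ± 0.20 SE, adjusted p = 0.208). Its groups did not overlap, yet aged 2 was only just above young 6. Mrpl52 stood at 51.2, 38.9 and 46.7 CPM in aged libraries and 32.4, 39.9 and 31.7 CPM in young libraries, and Mrpl4, which lines the exit tunnel, at 88.2, 63.9 and 80.2 CPM against 37.6, 73.5 and 67.7 CPM. Both overlapped, and without young 4 the log2 fold change of Mrpl4 was 0.11. Mrpl38 changed sign without young 4, from 0.06 to -0.14, and Mrps31 went from -0.28 to 0.03. With each library's trend by length and GC content removed, 70 members were negative with young 4 and 75 without it, against 56.5% and 56.6% of all genes. By library size alone 66 were, against 35.3% of all genes.

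Young 4 was the highest of the 6 libraries for 62 of 77 members, against 35.5% of all tested genes, and the lowest for 7, against 35.2%. Its level over the mean of young 5 and young 6 had a median of 1.63 over the members and of 1.01 over all tested genes. The ratio ran from 0.533 for Mrpl4 to 3.62 for Mrpl42 and was over 1.5 for 46 members, a level that 24.1% of all genes passed. Between young 5 and young 6 the same genes had ratios from 0.895 to 1.30, with a median of 1.07. Young 5 and young 6 were thus close for every member. Young 4 was above both for 80.5% of members and below both for others, such as Mrpl4. For some it lay between them, as for Mrps7 and Mrps35.

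Mrpl42, a protein of the large subunit without bacterial counterpart (chromosome 10, 95480806 to 95501938, minus strand), was at 1040 CPM in young 4 and at 298 and 278 CPM in young 5 and young 6. In aged 1 to aged 3 it was at 174, 281 and 218 CPM, so aged 2 reached the lower young values. Its log2 fold change was -1.27 ± 0.53 SE with young 4 and -0.38 ± 0.21 SE without (adjusted p = 0.196 and 0.297). Mrpl33, a counterpart of bacterial L33 whose interval overlaps Rbks on the opposite strand, was at 428 CPM in young 4, 156 and 147 CPM in young 5 and young 6, and 94.5, 139 and 114 CPM in aged libraries. Since the library kit keeps no strand, reads from such a pair cannot be told apart. At the other end, Mrps30, a large subunit protein despite its symbol, was at 81.8 CPM in young 4, 131 and 138 CPM in young 5 and young 6 and 117, 112 and 114 CPM in aged libraries. Leaving out young 4 moved its log2 fold change from -0.03 to -0.26, with an adjusted p of 0.172. Mrps2, a counterpart of bacterial S2, was at 29.7 CPM in young 4, 46.8 and 47.1 CPM in the other young libraries and 47.4, 34.6 and 35.1 CPM in aged ones, where aged 1 was as high as the higher young libraries.

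**Figure D4:**
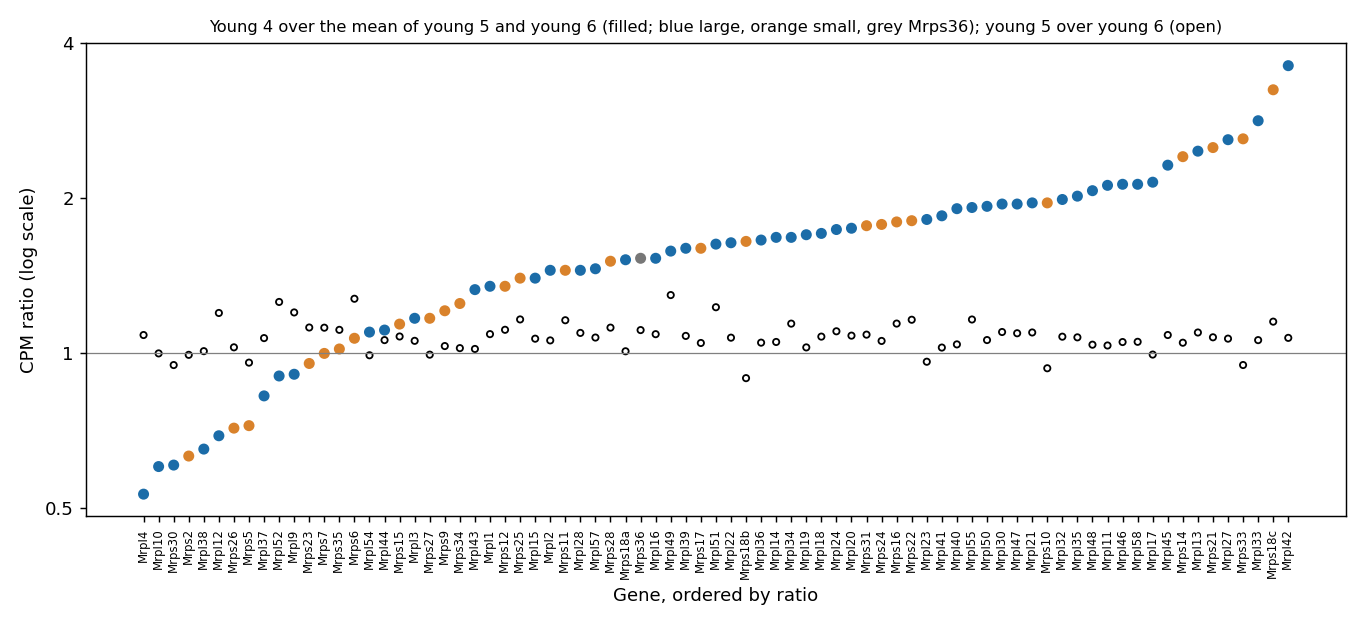
For each of 77 genes (x axis, ordered), the CPM of young 4 over the mean of young 5 and young 6 (filled, coloured by subunit) and of young 5 over young 6 (open), on a log scale. Filled points run from 0.533 to 3.62 with 65 above 1, while open points stay between 0.895 and 1.30.

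Across the 77 members, which share the same libraries and are not replicates, the log2 excess of young 4 had a Pearson's r of -0.03 with gene length, -0.28 with GC content and 0.42 with mean level. The fold change without young 4 had an r of 0.01 with length and -0.01 with GC content. The members are short genes, with a median length of 1.19 kb against 3.26 kb over all tested genes, and their median GC content was 49.7% against 49.5%. In the fit that removed this trend by length and GC content, the median log2 fold change of the members was -0.47 over all 6 libraries and -0.32 without young 4, where that of all genes was -0.08 and -0.07. Mrpl18 and Mrps28 fell over all 6 libraries in that fit, and 8 members fell without young 4 (Mrpl12, Mrpl18, Mrpl36, Mrpl37, Mrps15, Mrps18a, Mrps22 and Mrps28), against 5.16% and 7.31% of all genes. Over all genes, the correction changed the calls from 571 higher and 201 lower (74.0% higher) to 686 higher and 679 lower (50.3% higher).

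Levels between members are compared per kb of the deposited gene length, which for some genes covers long isoforms and can then understate the level. On this scale the median was 69.3 CPM per kb over the 77 tested members, and the highest was 19.8 times the lowest. Mrpl18 led with 219 ± 103 CPM per kb (SD over 6 libraries), followed by Mrpl28 (179 ± 59.0), Mrps16 (163 ± 53.1), Mrps18c (161 ± 123), Mrpl36 (159 ± 57.9) and Mrps21 (158 ± 86.6). The spreads of these neighbours overlap. Each SD holds differences by age and of young 4 that the genes share, so it does not compare genes within a library. These means include young 4: Mrps18c stood at 409 CPM per kb there and at 83.7 to 125 CPM per kb in aged libraries. In the small subunit the lowest were Mrps25 (11.1 ± 2.71), Mrps2 (12.9 ± 2.53) and Mrps22 (13.6 ± 6.05), and in the large subunit Mrpl43 (12.7 ± 2.07), Mrpl1 (13.1 ± 2.47) and Mrpl13 (14.6 ± 8.19), within each other's spread. Mrpl13, Mrps25, Mrpl1, Mrps22 and Mrps2 have deposited lengths of 6.645, 6.061, 4.179, 3.995 and 3.115 kb, far above the members' median. Mrpl43 overlaps Twnk, the mitochondrial DNA helicase gene, and Mrps25 overlaps Nr2c2, each on the opposite strand.

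Mrpl53, a protein of the large subunit (chromosome 6, 83108091 to 83109932, plus strand), had 0 counts in all 6 libraries and was not tested. A count of 0 allows up to 3 counts, or 0.132 CPM in young 6 to 0.239 CPM in young 4, by counting error only. Its interval overlaps Ccdc142 on the same strand, and how reads of shared bases were counted was not tested. The table also lists pseudogenes described as copies of Mrps18b, Mrpl40 and Mrpl32, with 57 to 115, 104 to 191 and 0 to 3 counts per library, so reads of these 3 members could be split. The members themselves had 711 to 1025, 1303 to 1970 and 1084 to 1637 counts.

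Other genes of mitochondrial translation and respiration were taken by list, and no test between lists was made. The 5 mitochondrial ribosomal proteins with other names (Dap3, Ptcd3, Chchd1, Aurkaip1 and Gadd45gip1) were all negative, with a median of -0.46 (-0.29 without young 4); 0 passed the test in edgeR or DESeq2, and 2 had an unadjusted p under 0.05. Chchd1, of the small subunit, stood at 55.2, 73.8 and 61.2 CPM in aged libraries and 214, 83.6 and 82.4 CPM in young libraries, and Gadd45gip1, of the large subunit, at 102, 112 and 110 CPM against 174, 144 and 129 CPM. Neither gene's groups overlapped (adjusted p = 0.175 and 0.151).

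Of 11 translation factors tested, edgeR called 0 over all 6 libraries and DESeq2 1 (Gfm1), and the median was -0.29, with 1 at an unadjusted p under 0.05. Gfm1, elongation factor G1, stood at 34.3, 27.6 and 27.6 CPM in aged libraries and 42.5, 45.9 and 39.7 CPM in young libraries (adjusted p = 0.119). Tsfm, elongation factor Ts, fell 0.61 on the log2 scale without young 4 (adjusted p = 0.0427), where the values were 44.6, 38.0 and 38.7 CPM in aged libraries and 62.0 and 59.6 CPM in young 5 and young 6; young 4 was at 42.9 CPM. Of 20 genes for mitochondrial aminoacyl-tRNA synthesis, edgeR called 0 over all 6 libraries, and 1 was lower and 1 higher by DESeq2 and at an unadjusted p under 0.05. Here 11 were negative and the median was -0.02. Wars2, which charges tryptophan tRNA, was at 38.0, 41.4 and 33.8 CPM in aged libraries and 26.5, 22.6 and 22.2 CPM in young libraries, with all aged values above the young ones; it rose without young 4 (adjusted p = 0.0444; 0.0674 with it).

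Of 28 genes of mitochondrial ribosome assembly and rRNA modification, 0 were called by edgeR or DESeq2, 1 was lower at an unadjusted p under 0.05 and 15 were negative, with a median of -0.01 (-0.07 without young 4). Fastkd2, an RNA-binding assembly factor, and Mrm3, an rRNA methyltransferase, had the smallest p, with adjusted values of 0.199 and 0.203. Of 16 genes of mitochondrial transcription and mRNA stability, 0 were called by either tool, 1 in each direction had an unadjusted p under 0.05, and the median was -0.21. Twnk was at 64.0, 41.3 and 46.4 CPM in aged libraries and 32.1, 37.9 and 33.1 CPM in young libraries (adjusted p = 0.157), and Pnpt1, a polynucleotide phosphorylase, had an adjusted p of 0.172 in the lower direction. Of 9 translation activators and insertion factors, edgeR called 0 over all 6 libraries and DESeq2 1 (Uqcc2), which was also the 1 with an unadjusted p under 0.05 (median -0.16). Uqcc2, an activator of cytochrome b synthesis, fell without young 4 (adjusted p = 0.0488), from 114 and 111 CPM in young 5 and young 6 to 72.0, 85.1 and 72.7 CPM, and young 4 was at 223 CPM. Coa3 had the next smallest p, with an adjusted value of 0.268.

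The 75 nuclear genes for respiratory chain and ATP synthase subunits, which work beside the products of the mitochondrial ribosome, had a median of -0.66 and 74 negative values. Of these, edgeR called 0 and DESeq2 11 lower over all 6 libraries, against 6.90% of all genes by DESeq2, and 40 were lower with an unadjusted p under 0.05, against 11.1%. Without young 4 the median was -0.34, with 3 called lower, against 2.54% of all genes, among them Cox5a of cytochrome c oxidase (114, 120 and 99.9 CPM in aged, 180 and 160 CPM in young 5 and young 6, adjusted p = 0.0413). Atp5e and Atp5g1, both of ATP synthase, were the others. Young 4 was the highest library for 67 of the 75. Their median and its shift without young 4 were thus close to those of the ribosomal proteins, as values of 2 lists from the same libraries.

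Among 12 regulators of nuclear genes for mitochondrial proteins, edgeR and DESeq2 called 0 over all 6 libraries, 0 had an unadjusted p under 0.05, and the median was 0.04. Without young 4, edgeR again called 0, 2 were lower with an unadjusted p under 0.05, and the median was -0.08. Yy1 was at 19.7, 24.5 and 23.3 CPM in aged libraries and 64.1, 25.9 and 25.7 CPM in young libraries (adjusted p = 0.247), with young 4 again the highest. Myc, a growth regulator, was at 547, 395 and 425 CPM in aged libraries and 585, 561 and 596 CPM in young libraries (adjusted p = 0.283). Gabpa, the ETS subunit of GABP, was at 73.8, 67.8 and 66.9 CPM against 79.1, 81.7 and 79.9 CPM, apart by age but with an adjusted p of 0.368.

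**Figure D5:**
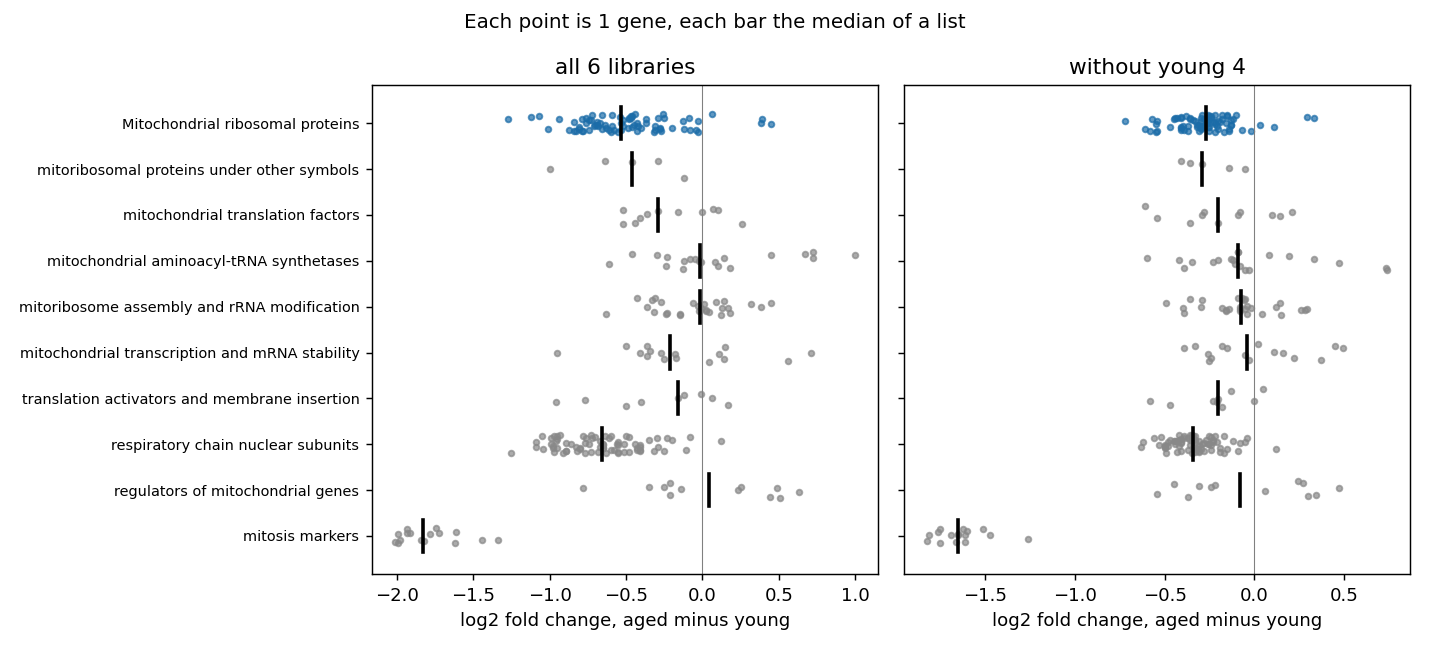
Log2 fold changes, aged minus young (x axis), of single genes (points) in 10 lists (rows), from all 6 libraries (left) and without young 4 (right), with medians as bars. The median of the ribosomal proteins is -0.53 on the left and -0.27 on the right, near that of respiratory chain subunits at -0.66 and -0.34, while assembly factors (-0.01 and -0.07) and tRNA synthetases (-0.02 and -0.09) lie near 0.

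Cell division genes moved with age in the same libraries: edgeR called 7 of 16 mitosis markers lower over all 6 libraries, against 1.50% of all genes. Each of the 16 had an unadjusted p under 0.05 in the lower direction, against 11.1% of all genes. Kif23, a kinesin of cell division, had the smallest p of the 7, with 35.2, 34 and 26.2 CPM in aged and 92.5, 77.3 and 72.6 CPM in young libraries (adjusted p = 0.0162). The median log2 fold change of the 16 was -1.83. Without young 4 it was -1.65, with 6 called lower, against 2.54% of all genes. The median deviation of the 16 was -0.434, -0.561 and -1.939 in aged 1 to aged 3 and 1.383, 0.829 and 0.766 in young 4 to young 6. For the ribosomal proteins it was -0.296, -0.129 and -0.300 in aged 1 to aged 3 and 0.744, 0.071 and -0.029 in young 4 to young 6. In both, young 4 was highest, followed by young 5 and young 6. Aged 3 was lowest in both, though nearly level with aged 1 for the ribosomal proteins, and aged 1 and aged 2 stood in opposite order. Marker sums of T and NK cells and of macrophages were also lower in every aged library than in every young one. The sum of the stem cell and sort markers was instead higher in every aged library (2700 to 3330 CPM) than in every young one (1300 to 2360 CPM). Sums of erythroid, B cell, neutrophil, megakaryocyte, and endothelial and stromal markers overlapped between the groups. The 8 T and NK cell markers summed to 17.7 to 46.2 CPM in aged libraries and 103 to 186 CPM in young libraries, with Cd8a at 0 and 6 of the 8 below 1 CPM in every library. The 7 erythroid markers in the table summed to 100 to 180 CPM in aged libraries and 119 to 418 CPM in young libraries, highest in young 5, and the 10 macrophage markers to 22.9 to 32.9 and 39.5 to 46.1 CPM. The 8 B cell markers summed to 59.8 to 87.8 and 74.3 to 134 CPM, with 7 below 1 CPM in every library. The 10 neutrophil markers summed to 4.46 to 13.9 and 7.39 to 11.6 CPM, the 7 megakaryocyte markers to 390 to 1250 and 731 to 1180 CPM, and the 10 endothelial and stromal markers to 162 to 185 and 117 to 195 CPM. The part of cell division, of these markers, or of what sets young 4 apart in the lower levels of the ribosomal protein genes was not tested.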

How the data were processed

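RNA of 6 libraries, 3 aged and 3 young, was measured. Per the labels' protocols, libraries came from the SMART-Seq v4 low-input kit and were read as single reads on a HiSeq; the submitters' processing notes name Trimmomatic, STAR 2.6.0, HTSeq 0.11.1, edgeR and mm10. They name no annotation or counting mode. The authors deposited whole-number counts per gene, with coordinates and gene length in kb.

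All 6 libraries entered 1 fit in edgeR 4.0.16 (R 4.3.3): filterByExpr, TMM, glmQLFit and glmQLFTest with age as the only term, Benjamini-Hochberg adjustment over 13413 genes, threshold 0.05. SE is the log2 fold change over the root of F. The fit was repeated without each library. Deviations are of log2 CPM with a prior count of 2. GC content came from GENCODE M21 transcripts for 98.0% of tested genes; trends were splines with 4 degrees of freedom. On counts simulated for 13268 genes, 3 against 3, 61.2% of 98 genes changed 4-fold and 3.06% of 98 changed 2-fold were recovered, and 4 unchanged genes were called.

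The members and lists were chosen with earlier results of these data known. Genes named were members picked by smallest p, level per kb, role or ratio of young 4 to the other young libraries, and up to 3 called or 2 uncalled genes per list, of which 1 is not reported here; Mrpl37, Mrps15, Mrpl47, Mrps31 and Gabpa were added after their values were seen. Alternatives were other scalings and filters, DESeq2 1.42.0 and limma-voom (limma 3.58.1).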

Additional observations from a re-analysis of the deposited data

How the results depend on the processing

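Over all 17 other fits, the members' median log2 fold change stayed negative, and 0 members were called higher in any of them. The median ran from -0.70 to -0.27 with 1 library left out (-0.27 without young 4) and was -0.31 by library size alone, where the median of all genes moved from 0.04 to 0.20; relative to all genes it was -0.57 by TMM, -0.55 by upper quartile and -0.51 by library size. The number of members called lower, 0 over all 6 libraries, was 0 to 2 with 1 library left out (2 without young 4), 2 with both young 4 and aged 2 left out, 1 without a filter on low counts, 8 by DESeq2 and 21 by limma-voom with quality weights. It was 2 with the trend of length and GC content taken out and 8 with that trend taken out and young 4 left out. Of all genes, 1.50% were called lower over all 6 libraries, 2.54% without young 4, 6.90% by DESeq2 and 13.2% by limma-voom with quality weights. With the trend taken out the share was 5.16%, and 7.31% with young 4 also left out. Without a filter on low counts 342 of 21778 genes were called lower, and 216 of 13511 with young 4 and aged 2 left out. The 772 calls among all genes became 74 to 1029 with 1 library left out, 421 at 5 CPM or more in 3 libraries, 2181 by DESeq2, 4094 by limma-voom with quality weights, and 1365 with the trend taken out (1777 without young 4). Why these counts differ was not tested. Leaving out Mrps36 and adding the 5 proteins with other names, which cannot alter a call, gave a median of -0.52. The ratio of shares, 0.766, ran from 0.724 to 0.838 with 1 library left out. No paired analysis was possible because aged and young libraries share no replicate number. In the simulation few 2-fold changes were recovered with 3 libraries a group, and most members differed by less. Its changed genes were few and drawn at random from all levels, with the spread taken from all 6 libraries, young 4 included. The members had a median level of 79.7 CPM, against 28.4 CPM over all tested genes. The rate of recovery for the members was thus not estimated.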
